A study of Mus musculus with 6 samples.

Results

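NMDA receptors are glutamate-gated cation channels of excitatory synapses that open when glutamate and a co-agonist, glycine or D-serine, are bound and depolarisation has expelled magnesium from the pore. Each channel is a tetramer of the obligatory GluN1 subunit, encoded by Grin1, with GluN2 subunits (Grin2a to Grin2d) that bind glutamate and set channel kinetics, or with GluN3 subunits such as that of Grin3a, which bind glycine and lower calcium permeability and magnesium block. In principal neurons of the hippocampus GluN2B predominates early in life and GluN2A is added later, while GluN2C is best known from cerebellar granule cells, GluN2D from interneurons and GluN3A from young synapses.

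The 6 genes Grin1, Grin2a, Grin2b, Grin2c, Grin2d and Grin3a were followed as all probe sets of a Mouse Genome 430 2.0 array whose annotation gives exactly 1 gene symbol, that of a member. This found 11 of 45037 probe sets other than controls, for 5 of the 6 genes, out of 18193 genes named in this way: 1 for Grin2a, 4 for Grin2b, 1 for Grin2c, 2 for Grin2d and 3 for Grin3a. No probe set in the annotation used here carried Grin1 alone, so its level was not analysed here.

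The RNA came from cells labelled DGCs, isolated from mouse hippocampus and taken here as dentate granule cells. The study compared control mice with transgenic mice that overexpress HuD, an RNA-binding protein of neurons encoded by Elavl4 that stabilises mRNAs with AU-rich elements. As far as is known of such mice, the transgene is driven by the Camk2a promoter, which is active in forebrain excitatory neurons and not in granule cells alone. Strain, age and sex were not used. Each group had 3 arrays from 2 mice, 1 array of mouse 1 and 2 arrays of mouse 2, and a treatment named preservation was given for all of them. The tag re-LCM, whose meaning is not given, stands in the titles of the mouse 1 array of each group and of array 1 of transgenic mouse 2. The titles of both arrays described as control mouse 2 number them as separate controls, so whether they come from 1 mouse rests on the descriptions.

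Values are linear intensities, scaled by the authors to a 2% trimmed mean of 150.0 on every array. Intensities under 10.1, the 25th percentile over all arrays, were set to that floor before log2 was taken, because such values have no order. Differences are log2 of transgenic minus control, averaged first within a mouse, so n = 2 mice per group. Levels were not compared between probe sets, which differ in how well they capture their target. Granule cell markers were bright on every array (7 of 7 measured, mean log2 level 10.34 to 10.42 in control and 10.19 to 10.31 in transgenic mice), with Prox1 at an intensity of 497 to 651 and Dsp at 6366 to 9391. Elavl4 did not separate the groups on any of its 3 probe sets, the brightest of which read 63.7 to 122 on control and 60.1 to 93.3 on transgenic arrays (log2 difference -0.33, 95% interval -1.32 to 0.66). Whether these probe sets detect the transgene is not known, so they check no label. In such captures fewer cells of a type and less RNA per cell cannot be told apart.

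Across the receptor subunits no difference between the groups passed the test. With limma, 0 of 14678 genes (0%) were called at an adjusted p under 0.05, while 632 (4.31%) had an unadjusted p under 0.05. The direction differed by gene and by probe set. Of the 11 probe sets, 4 read higher on all 3 transgenic than on all 3 control arrays, 1 of Grin2b, 1 of Grin2c and 2 of Grin3a. Another 1, the brightest of Grin2b, read lower on all 3 transgenic arrays, and the other 6 overlapped. Over all 45037 probe sets the shares were 3.01% higher and 4.01% lower. A probe set needs at least 3 arrays above the floor to separate the groups, which 9 of the 11 have; among all 35657 such probe sets the shares were 3.81% and 5.07%. The arrays of a mouse are not independent, and 3 of the 4 higher probe sets lay near the floor, as described below. When the floor was raised to 34.6, the median intensity, 1 of the 4 remained separated, and 1.94% of all probe sets were higher and 2.20% lower.

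**Figure D1:**
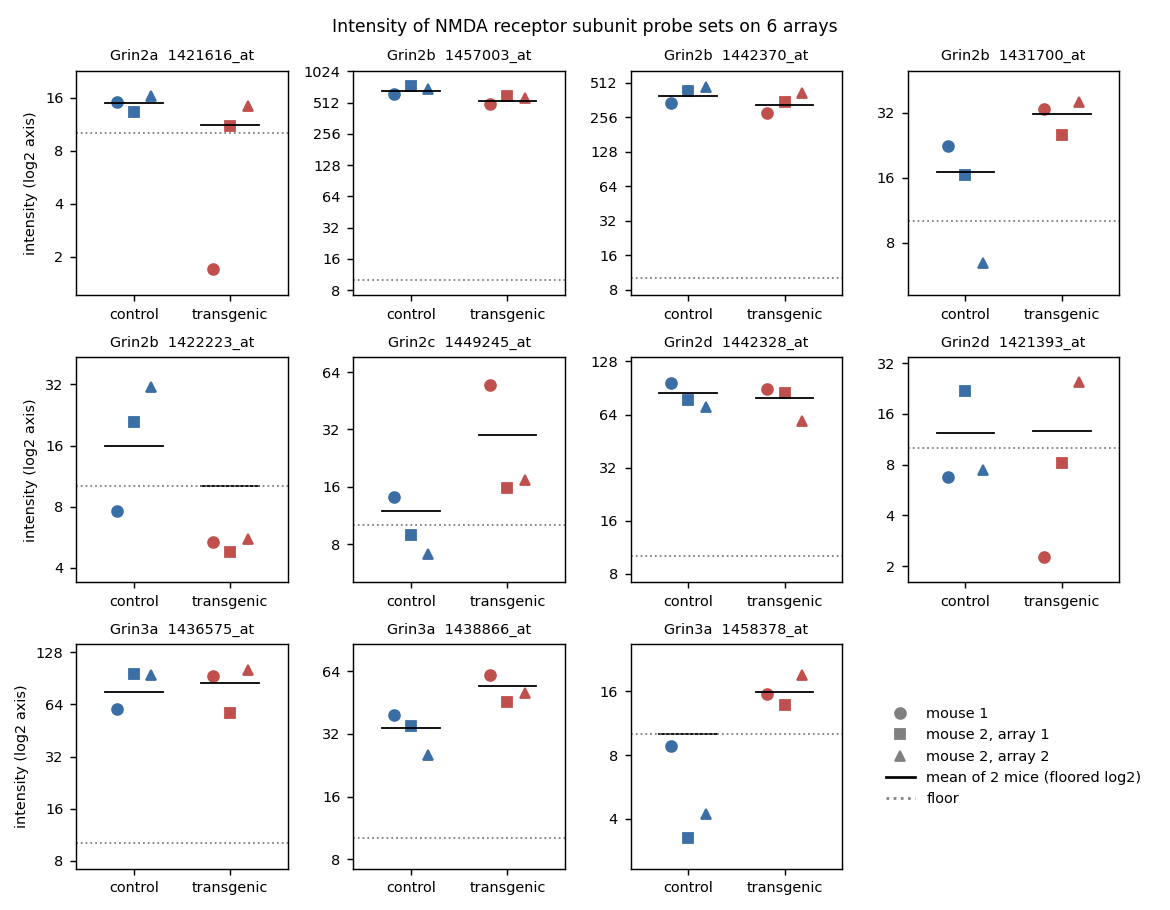
Intensity (log2 axis) of each of the 11 probe sets on the 3 control (blue) and 3 transgenic (red) arrays, with the mean of 2 mice as a line and the floor of 10.1 dotted. The brightest Grin2b probe set was lower on all transgenic arrays, 1438866_at of Grin3a was higher on all of them, and 6 of the 11 probe sets had at least 1 array at or under the floor.

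Grin2b encodes the glutamate-binding GluN2B subunit, which gives slowly closing channels and binds CaMKII. Its brightest probe set, 1457003_at, read 613 in control mouse 1 and 741 and 690 on the arrays of control mouse 2. In the transgenic mice it read 495 in mouse 1 and 594 and 560 on the arrays of mouse 2. The groups did not overlap, although the highest transgenic array lay close to the lowest control array. The mean log2 level was 9.37 ± 0.16 in control mice and 9.06 ± 0.16 in their transgenic counterparts (SD, n = 2), a ratio of 0.807 (log2 difference -0.31, SE 0.18, 95% interval -0.79 to 0.17). It did not pass the limma test (adjusted p = 0.999). Mouse 1 of each group read lower than mouse 2, by a log2 difference of -0.22 in both control and transgenic mice, so the spread between mice of a group was of the same order as the difference between groups. The difference was -0.20 without control mouse 2 and -0.20 without transgenic mouse 1, as against -0.42 without either of the other mice. Within the arrays with the re-LCM tag it was -0.18, and within the others -0.35. Here and below, the re-LCM value rests on a single control array and the other value on a single transgenic array.

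The second Grin2b probe set, 1442370_at, followed the same order of mice. Here and for the genes that follow, values stand in the order mouse 1, then array 1 and array 2 of mouse 2. The control mice gave 336, 433 and 464, the transgenic mice 277, 347 and 411. The groups overlapped, since the array of control mouse 1 lay below those of transgenic mouse 2. The log2 difference was -0.26 (SE 0.27, 95% interval -1.16 to 0.64; limma over all probe sets, adjusted p = 0.885). It was -0.040 without transgenic mouse 1 and -0.056 without control mouse 2, and was -0.49 without transgenic mouse 2 and -0.47 without control mouse 1. Mouse 1 read lower than mouse 2 by -0.41 in control and -0.45 in transgenic mice, which is more than the difference between the groups.

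The remaining Grin2b probe sets were dim and disagreed. On 1431700_at the control mice gave 22.4, 16.5 and 6.40 and the transgenic mice 33.3, 25.2 and 35.8. All transgenic arrays were higher, with 1 control array under the floor, and the log2 difference was 0.90 (95% interval -0.29 to 2.08; limma, adjusted p = 0.853). It was 0.50 without control mouse 2, and with the floor at the median intensity it was 0.0125. Within the re-LCM arrays it was 0.37, and within the others 1.47. On 1422223_at the control mice gave 7.66, 20.8 and 31.0, while all 3 transgenic arrays lay under the floor, at 4.78 to 5.53. The log2 difference of -0.67 comes from control mouse 2 alone, since control mouse 1 lay under the floor too, and it is no bound. The mean over all 4 Grin2b probe sets differed by -0.086, against -0.31 for the brightest.

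Grin2a encodes GluN2A, the glutamate-binding subunit that is added as synapses mature and speeds channel closing. Its single probe set, 1421616_at, gave 15.2, 13.4 and 16.3 in control mice, against 1.69, 11.0 and 14.3 in transgenic mice. The groups overlapped, and the lowest value, that of transgenic mouse 1, lay under the floor. Every other value stood close above it. The mean log2 level was 3.91 ± 0.029 in control mice and 3.49 ± 0.23 in the transgenic ones (SD, n = 2), over a floor of 3.33. The log2 difference was -0.41 (95% interval -0.91 to 0.08; limma, adjusted p = 0.826), and -0.25 without transgenic mouse 1. Within the re-LCM arrays it was -0.53, and within the others -0.043.

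Grin2d encodes GluN2D, which gives channels with slow kinetics and weak magnesium block. Its brighter probe set, 1442328_at, gave 96.3, 77.3 and 71.0 in control mice, against 88.9, 84.2 and 58.5 in transgenic mice. These ranges overlapped over most of their length. The log2 difference was -0.097 (SE 0.22, 95% interval -0.68 to 0.49; limma, adjusted p = 0.999), which turned to 0.092 without control mouse 1 and to 0.074 without transgenic mouse 2. Within the re-LCM arrays it was -0.15, and within the others -0.34. Here mouse 1 read higher than mouse 2 in both groups, by 0.38 in control and 0.34 in transgenic mice. The dimmer probe set, 1421393_at, was above the floor on 1 control and 1 transgenic array, at 22.0 and 24.7, both of mouse 2. The other array of the same mouse read 7.43 in control and 8.17 in transgenic mice, so arrays described as 1 mouse differed more than the groups (log2 difference 0.042; 95% interval -1.21 to 1.30; limma, adjusted p = 1.00).

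Grin2c encodes GluN2C, which astrocytes express too. Its probe set 1449245_at gave 14.2, 8.90 and 7.10 in control mice, against 54.5, 15.8 and 17.4 in transgenic mice. All transgenic arrays were higher, but 2 of 3 control arrays lay under the floor and transgenic mouse 1 stood far above the rest. The log2 difference was 1.33 (SE 0.77, 95% interval -1.27 to 3.93; limma, adjusted p = 0.882). It was 0.47 without transgenic mouse 1, 2.19 without transgenic mouse 2 and 0.33 with the floor at the median intensity. Within the re-LCM arrays it was 1.05, and within the others 0.79. Of the astrocyte markers 8 of 9 measured genes had lower means in the transgenic mice. Their mean log2 level on the array of transgenic mouse 1 was 7.79, within the control range of 7.74 to 8.46. None of the 9 was at the floor on all arrays, and Gfap read 159 to 311. The part of these cells in the Grin2c values was not tested.

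Grin3a encodes GluN3A, which binds glycine in place of glutamate and is abundant at young synapses. Its brightest probe set, 1436575_at, gave 60.1, 96.4 and 95.2 in control mice, against 94.0, 57.1 and 102 in transgenic mice. In each group 1 array stood well below the others, and the groups overlapped throughout. In the transgenic group the low and the highest array belong to the same mouse, with a log2 difference of 0.83 between them. The log2 difference between groups was 0.16 (SE 0.28, 95% interval -0.59 to 0.90; limma, adjusted p = 0.999), and -0.18 without control mouse 1. It was 0.28 within the re-LCM arrays and 0.086 within the others.

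The second Grin3a probe set, 1438866_at, separated the groups above the floor. The control mice gave 39.4, 34.9 and 25.3, the transgenic mice 61.6, 45.7 and 50.5. Every transgenic array was higher than every control array, with a mean log2 level of 5.10 ± 0.29 in control mice and 5.77 ± 0.25 in the transgenic ones (SD, n = 2). The ratio was 1.59 (log2 difference 0.67, SE 0.24, 95% interval -0.13 to 1.47). It did not pass over all probe sets (limma, adjusted p = 0.826). Over leave-outs it ran from 0.47 to 0.87, within the re-LCM arrays it was 0.43, and within the others 0.77. The third probe set, 1458378_at, gave 8.80, 3.25 and 4.23 in control mice, all under the floor, against 15.6, 13.7 and 19.0 in transgenic mice. Transgenic was at least 1.57-fold higher, counted from the floor, a bound that rests on dim values. Its unadjusted p of 0.00177 comes from control values that the floor makes equal, and its adjusted p was 0.538 (limma). The mean over the 3 Grin3a probe sets differed by 0.49 (limma, adjusted p = 0.659).

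**Figure D2:**
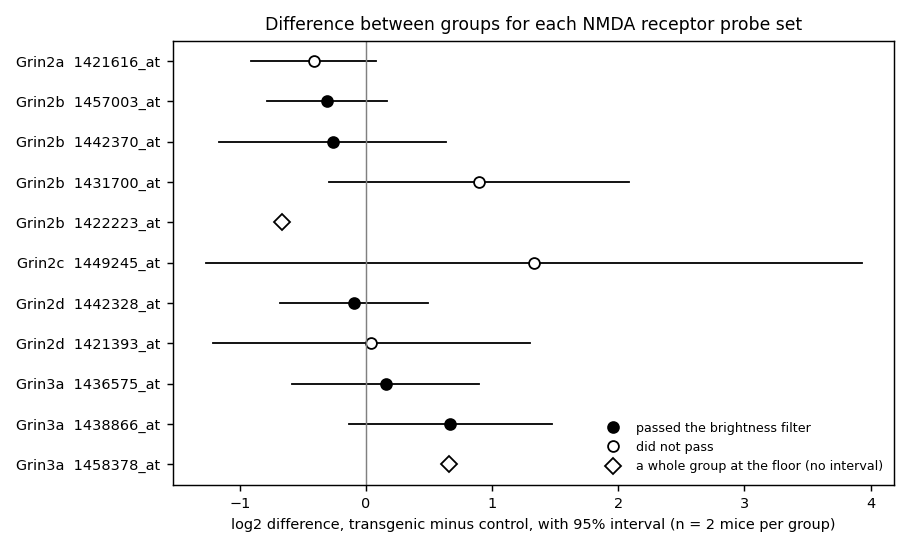
Log2 difference, transgenic minus control, of each probe set with its 95% interval from limma (n = 2 mice per group), filled where the probe set passed the brightness filter and as a diamond without interval where a whole group lay at the floor. Every interval drawn includes 0, for example those of Grin2a (-0.91 to 0.08) and Grin2c (-1.27 to 3.93).

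The spread between mice of a group was set beside these differences. The step from mouse 2 to mouse 1 had the same sign in control and transgenic mice for the brighter pair of Grin2b probe sets and Grin2d 1442328_at. The same held for Grin3a 1438866_at (0.41 and 0.36). Signs were opposite for Grin3a 1436575_at, at -0.67 in control and 0.30 in transgenic mice. In the other 6 probe sets at least 1 array lay at the floor, which can fix the sign of the step. It was 0.80 and 0.15 for Grin2b 1431700_at, 0.50 and 1.72 for Grin2c, and 0.041 and -0.32 for Grin2a. The labels give no pairing of mice across the groups beyond the number. Mouse 1 of both groups carries the re-LCM tag, as does 1 array of transgenic mouse 2. In the control group the tag and the mouse coincide, so their parts in the control steps cannot be told apart. The part of the tag in the transgenic steps was not tested.

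**Figure D3:**
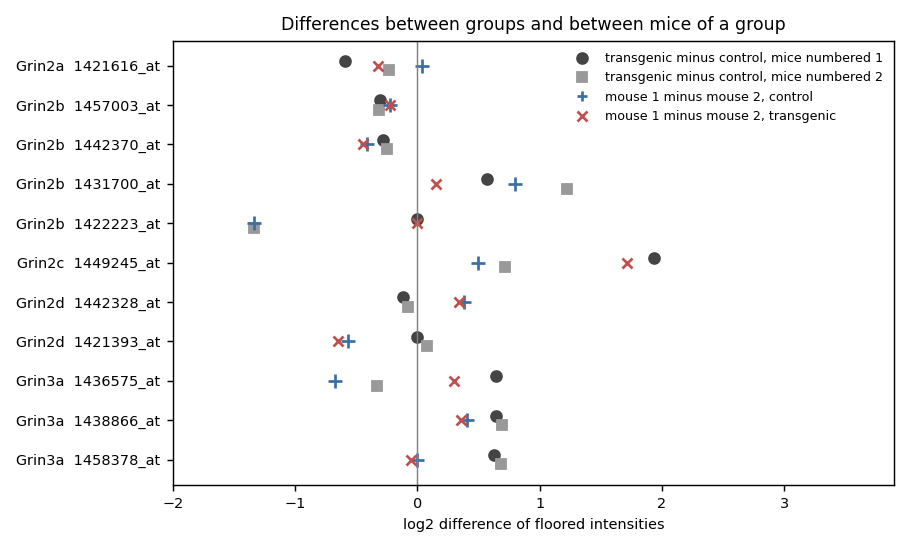
Log2 differences of the floored intensities between groups, for mice numbered 1 (dark circles) and 2 (grey squares), and between mouse 1 and mouse 2 within the control (blue plus) and transgenic group (red cross). Mice are matched across the groups by number alone, which the labels do not give as a pairing, so another match would give other group differences. Matched in this way, Grin2b 1457003_at had group differences of -0.31 and -0.31, beside mouse differences of -0.22 and -0.22. Grin3a 1438866_at had 0.65 and 0.69, beside 0.41 and 0.36 between mice.

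Across the scalings, floors, models and left-out mice or arrays tried, the direction held for all Grin2a, Grin2b and Grin2c probe sets wherever a value could be had, and for 2 of the 3 Grin3a probe sets. It turned for both Grin2d probe sets and for the brightest of Grin3a. In the 5 probe sets without overlap, leaving out a mouse or array or splitting by the re-LCM tag could not turn the direction. The same is true of Grin2b 1422223_at, whose transgenic arrays all lay under the floor. For these, such settings add nothing to the values on the arrays.

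**Figure D4:**
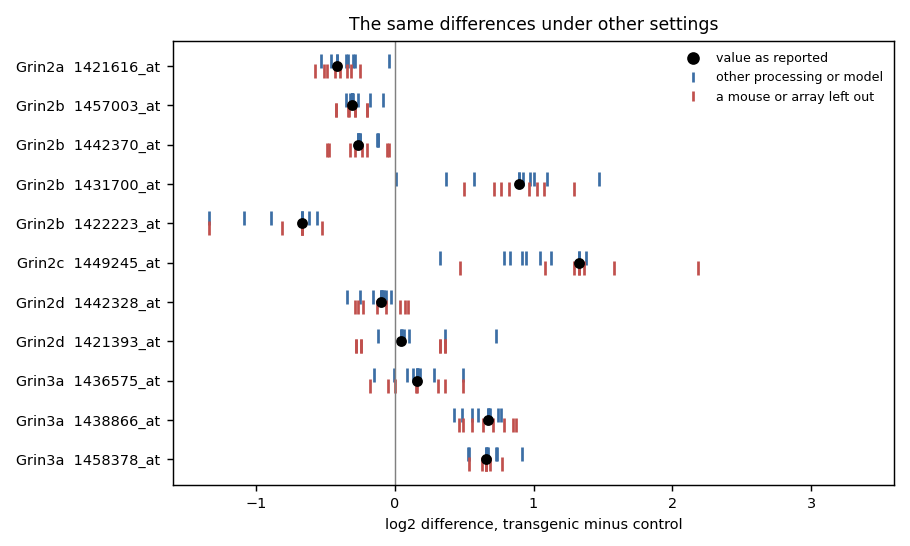
Log2 difference, transgenic minus control, of each probe set as reported (black), under other processing or models (blue ticks) and with a mouse or array left out (red ticks). Values of Grin3a 1438866_at stay between 0.43 and 0.87, while those of Grin2d 1442328_at and Grin3a 1436575_at lie on both sides of 0.

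Granule cell markers had lower means in the transgenic mice in 5 of 7 genes (median log2 difference -0.15), and their mean level was lower on every transgenic than on every control array. Markers of most other cell types had lower means as well. Interneuron markers had lower means in 7 of 9 measured genes, with a mean log2 level of 6.80 to 7.61 on control and 6.78 to 7.17 on transgenic arrays. Pyramidal cell markers were lower in 5 of 6, at 4.75 to 5.50 in control and 4.98 to 5.06 in transgenic mice. Oligodendrocyte markers were lower in 9 of 9, at 6.71 to 7.99 and 6.50 to 7.08, microglia markers in 8 of 10, at 6.65 to 6.87 and 6.42 to 6.61, and vascular markers in 2 of 7. No marker was at the floor on all arrays except Itgam of the microglia and Pecam1 of the vascular list. The highest array in each of these lists was that of control mouse 1. Their part in the values of the subunits was not tested. The array of control mouse 1 had the lowest control values of the brighter pair of Grin2b probe sets and of Grin3a 1436575_at. It had the highest control values of Grin2d 1442328_at, Grin2b 1431700_at, Grin2c and Grin3a 1438866_at. For Grin2a it lay between the arrays of control mouse 2, and for the remaining probe sets it lay under the floor.

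Genes that act on or with the receptor gave no call. Of 64 genes listed by role, 51 were tested, 9 had no probe set with a single symbol and 4 did not pass the brightness filter. With limma 0 of the 51 passed, 23 had a higher and 28 a lower mean in the transgenic mice, and 2 had an unadjusted p under 0.05. Their median difference was -0.0099, against 0.0026 for all genes tested. The arrays did not overlap for 0 genes in the higher and 7 in the lower direction, where 3.86% and 4.22% of all genes tested did so. Those 7 were Shank3, Akap5, Fyn, Slc1a4, Lin7c, Nedd4 and Dlg1, the last 2 of them named after their values were seen. Over leave-outs the lower count ran from 7 to 16 and the higher from 1 to 15, where 7.69% to 23.7% of all genes tested were higher and 8.03% to 25.2% lower. The 16 lower and 15 higher genes were both counted without transgenic mouse 2, where 25.2% of all genes tested were lower and 23.7% higher.

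Of the scaffolds and anchors, which hold the receptor in the postsynaptic density, 14 were tested, 6 higher and 8 lower (median -0.065). Akap9, whose product anchors kinases to GluN1, read 145, 206 and 154 in control and 225, 199 and 299 in transgenic mice, with overlap and a log2 difference of 0.54 (SE 0.18). The MAGUK scaffold gene Dlg2 gave 0.12 (SE 0.15). Shank3, a deeper layer of the scaffold, read 163 to 192 in control and 135 to 155 in transgenic mice (-0.36, SE 0.16). Akap5, an anchor for kinase A and calcineurin, gave -0.32 (SE 0.18). None of these passed over all genes (limma, adjusted p = 0.999 for each).

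Of the kinases and phosphatases that act on the receptor, 14 were tested, 6 higher and 8 lower (median -0.0068). Fyn, a tyrosine kinase that phosphorylates GluN2B, read 846, 704 and 690 on control and 554, 609 and 563 on transgenic arrays. The log2 difference was -0.43 (SE 0.18), and all transgenic arrays were lower. The related kinase Src gave -0.20 (SE 0.26). Camk2b, a subunit of CaMKII, gave 0.39 (SE 0.25), and Cdk5, which phosphorylates GluN2A, 0.31 (SE 0.22).

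Of the co-agonist genes 5 were tested, 3 higher and 2 lower (median 0.0215), among them Slc1a4, a transporter of serine and alanine. It read 142, 178 and 112 on control and 101, 88.7 and 99.3 on transgenic arrays, so every transgenic array was lower (log2 difference -0.54, SE 0.15; limma, adjusted p = 0.999). Slc7a10, another D-serine transporter, differed by -0.0033. Slc6a9, the glycine transporter GlyT1, ranged from 12.4 to 86.0 in control and from 55.0 to 117 in transgenic mice, with overlap (0.76, SE 0.69). The other tested genes were Shmt2, at 0.07 (SE 0.15), and the serine racemase gene Srr, at 0.0215 (SE 0.18).

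Of the trafficking and surface partners 10 were tested, 6 higher and 4 lower (median 0.072). Lin7c, of the complex that carries GluN2B along dendrites, gave -0.43 (SE 0.19) without overlap, and its relative Lin7a -0.39 (SE 0.24). The reelin receptor gene Lrp8 gave 0.36 (SE 0.15), and Apba1, a further member of the transport complex, 0.42 (SE 0.26). Downstream of calcium entry 8 genes were tested, 2 higher and 6 lower (median -0.048). The exchange factor Rasgrf2 gave 0.22 (SE 0.17), Nos1, the neuronal nitric oxide synthase, 0.19 (SE 0.27), Camkk2 -0.34 (SE 0.19) and Camk4 -0.16 (SE 0.16). None was called.

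**Figure D5:**
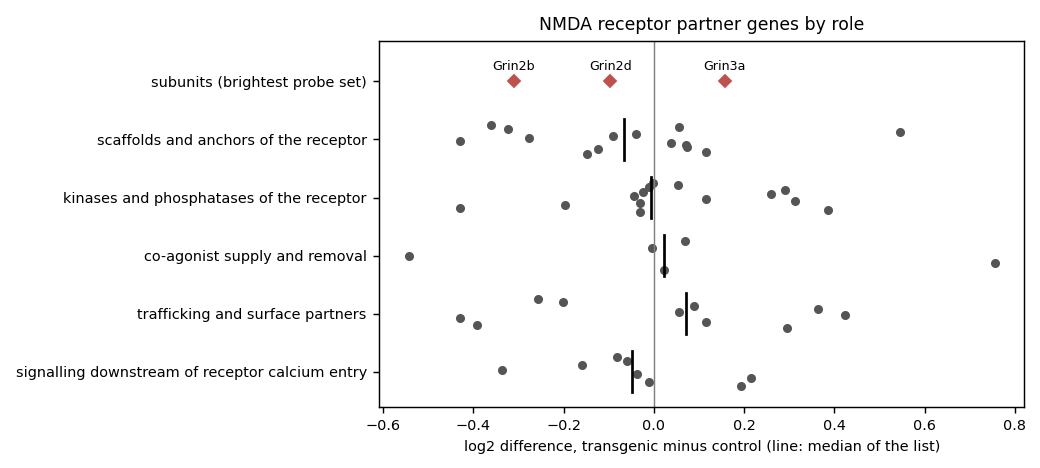
Log2 difference, transgenic minus control, of the 51 tested partner genes (points) by role, with each list's median as a line, and of the brightest probe set of Grin2b (-0.31), Grin2d (-0.097) and Grin3a (0.16) as diamonds. List medians lay between -0.065 and 0.072, and no gene was called.

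The tested genes with a pattern most like that of a subunit were found by the root mean square difference of log2 values, each centred on its mean, over the 6 arrays of 4 mice. For Grin2b these were Taf1 (0.045) and H1f2 (0.048), against a median of 0.30 over 11135 named genes. For Grin2d they were Serp1 (0.057) and Msto1 (0.062), against a median of 0.32. For Grin3a they were Cc2d1b (0.0485) and Wdr48 (0.072), against a median of 0.41. Picked as the smallest among 11135 genes, such values are low by selection. The points share arrays and mice, and these values are a description.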

How the data were processed

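The deposited table holds linear probe set intensities of 6 arrays, scaled by the authors to a common trimmed mean, as the values show. The program that summarised the probes and how it treated background are not named in the labels or the file used here. Genes were named from the platform annotation. The floor and log2 are described with the results. Genes were fitted with limma 3.58.1 (lmFit, eBayes) in R 4.3.3 on mouse means, using the brightest probe set per gene and those with a mean log2 above the median (4.92), with Benjamini-Hochberg adjustment over 14678 genes and a threshold of 0.05. Of these 11138 had a symbol, and the others are probe sets without a single symbol, each counted as a gene. Probe sets outside that fit were taken from a separate limma fit over all 45037, with its own pooled variance. Adjusted p-values of these fits are not comparable. For Grin2b 1457003_at the adjusted p was 0.999 in the limma fit of genes and 0.882 in that of all probe sets. The fit was tested on simulated data. Named were all member probe sets, the 2 partner genes per list and direction of smallest p, and the 2 genes of most similar pattern; Dlg1, Nedd4 and Srr were named beyond this rule, after their values were seen. Members, lists and settings were chosen with earlier results of these data known. p-values, SEs and intervals rest on the spread between 2 mice per group. eBayes moderated each variance toward a value pooled over all genes or probe sets of the fit, so they do not measure that spread alone.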

Additional observations from a re-analysis of the deposited data

How the results depend on the processing

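No difference of a subunit passed the threshold in any of the settings with a test (limma), and 8 of the 11 probe sets kept their direction in every setting that gave a value. In 7 cases all arrays lay at the floor and no value could be had. The 8 include the 5 probe sets without overlap and the dimmest of Grin2b, whose transgenic arrays all lay under the floor. Leaving out a mouse or array or splitting by the re-LCM tag could not turn the direction of these. For them, such settings are therefore no check of the direction. Direction turned for Grin2d 1442328_at (-0.29 to 0.092 over leave-outs), Grin2d 1421393_at (-0.28 to 0.36 over leave-outs, -0.12 with log2(intensity + 16)) and Grin3a 1436575_at (-0.18 to 0.49 over leave-outs, -0.0057 with 6 arrays as samples, -0.15 with the mouse as a random block); the cause was not tested. Member probe sets higher without overlap fell from 4 to 1 when the floor was raised to the median intensity (1.94% of all probe sets higher). Those lost were Grin2b 1431700_at, Grin2c 1449245_at and Grin3a 1458378_at. Each had transgenic and control arrays under the raised floor, which makes such values equal. Those lower without overlap were 2 with log2(intensity + 16) (5.36% of all probe sets lower) and 1 to 3 over leave-outs (6.93% to 21.7% of all probe sets lower), against 1 (4.01%). With a variance trend and robust variances 1 gene, Edil3, was called, and 0 in every other setting. The labels do not say whether the mouse numbers pair the animals, and they were not treated as pairs. Deviations of the mice numbered 1 from their group means correlated at 0.033 across genes, a single value that cannot settle this. With the mouse number as a replicate block the brightest Grin2b difference was -0.31 (adjusted p = 0.959, limma), and no call changed. The counts without overlap, for members and partners, were followed across settings after seeing the data. Signal near background limits Grin2a, Grin2c and the dimmer probe sets of Grin2b, Grin2d and Grin3a.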

Other observations

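All 4 receptor probe sets annotated with a RefSeq mRNA, those of Grin2a and Grin2c and the dimmest of Grin2b and Grin2d, missed the brightness filter, while 5 of the 7 others passed it. Over all probe sets with 1 symbol, 49.9% with a RefSeq mRNA and 55.2% of the others passed. The bright Grin2b and Grin2d signals therefore rest on probe sets annotated in another way, and which part of the transcript each probe set reads was not examined.

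Grin3b, the second GluN3 gene, is best known from motor neurons. Its probe set gave 29.2, 12.8 and 7.33 in control mice and 20.7, 12.6 and 46.3 in transgenic mice, with overlap and a log2 difference of 0.30 (95% interval -1.72 to 2.31; limma over all probe sets, adjusted p = 0.971).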
